A study of Mus musculus with 13 samples.

Results

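Transcripts of the vessels of the brain were followed in expression arrays of 1 brain hemisphere from each of 13 male mice. The genes are 34 markers of endothelial cells, of the blood-brain barrier and of mural cells, taken by name from a list. That list was chosen with earlier results of these data known. Of these, 32 had a probe set that carries only their own symbol in the platform annotation, out of 18161 genes with such a probe set: 22 of 24 endothelial genes and 10 of 10 mural genes. Ly6a and Ly6c1 had no such probe set in the annotation used and were not analysed here. Together the 32 genes have 52 probe sets, and each gene is given at its brightest one, the probe set with the highest mean over all arrays, unless another is named.

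All mice were of the inbred strain C3HeB/FeJ and 10 to 12 weeks old when feeding began. In the creatine group, 6 mice ate pellets with 1% creatine for 6 months; in the untreated group, 7 mice received creatine-free pellets matched in calories. Creatine is a compound that cells phosphorylate to buffer their ATP supply. The labels call the arrays biological replicates, and they were treated as separate mice. Nothing else is said of litters or cages, so the p-values assume that these mice are independent.

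Endothelial cells line the vessels of the brain, and there they form the blood-brain barrier: tight junctions seal the gaps between them, carriers bring in nutrients and hormones, and pumps return foreign compounds to the blood. Mural cells wrap around this tube. Pericytes sit on capillaries and help to keep the barrier closed, while smooth muscle cells around arteries and arterioles contract and set the flow. Several of the listed genes are used by other brain cells too: Bsg, Tfrc, Slc16a1 and Pltp are not limited to vessels, and Slco1c1 is also made by astrocytes.

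Each array gives 1 intensity per probe set, on a linear scale, with array medians between 37 and 45. Brightness was judged against these medians, which is not a test of detection. Means of 21 of the 22 endothelial genes lay above every array median in both groups, Tie1 being the exception, and so did those of 6 of the 10 mural genes. Pecam1 (47.5 with creatine, 54.1 without) and Vwf (53.8 and 46.3) were only a little above. Anpep, Cnn1 and Des lay below every array median in both groups, and Myh11 lay near it. Intensities of different probe sets are not on one scale, so levels are compared only between mice. Differences are log2(intensity + 16) in creatine-fed minus untreated mice, which understates changes of dim genes. They were fitted with limma, and adjusted p is Benjamini-Hochberg over 45037 probe sets with a threshold of 0.05. In a whole hemisphere, fewer cells of a type and less RNA per cell cannot be told apart.

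The comparison of the groups asks whether 6 months of creatine left vessel transcripts at another level. None of the 32 genes passed the limma test over all probe sets (0.00888% of all probe sets did, and 0.00551% of genes at their brightest probe set). The lowest adjusted p was 0.284 among endothelial genes, for Slco1a4, and 0.221 among mural genes, for Acta2. At an unadjusted p under 0.05, 3 endothelial genes were lower and 0 higher, and 2 mural genes were higher and 0 lower. Of all genes, 7.60% were lower and 3.57% higher by that rule. The 3 lower endothelial genes, 3 of 22, were Slco1a4, Tfrc and Sox17, and the 2 higher mural genes, 2 of 10, were Acta2 and Myh11. Endothelial genes had lower means with creatine in 13 of 22 cases, against 58.5% of all genes, and a median log2 difference of -0.02, against -0.03 over all genes. In mural genes 4 of 10 means were lower and the median was 0.03. After each array was centred on its median, the median difference was 0.02 over all genes and 0.03 over endothelial genes. With that centring 0 endothelial genes were lower at an unadjusted p under 0.05 and 10 of 22 means were lower. The same 2 mural genes stayed higher by that rule. Shares of all genes, here and below, are for values without this centring.

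**Figure D1:**
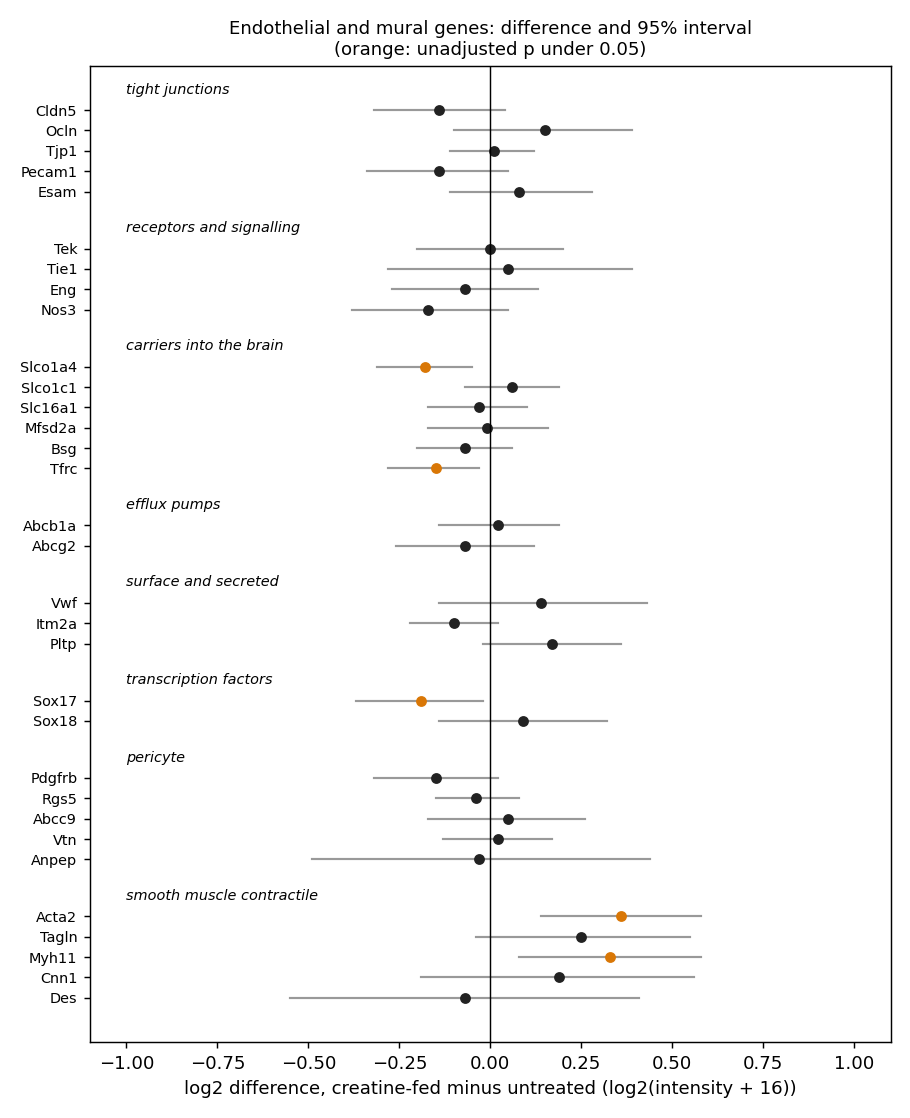
Log2 difference between creatine-fed (n = 6) and untreated (n = 7) mice for the 32 genes at their brightest probe sets, with the 95% interval from limma, grouped by role; orange points have an unadjusted p under 0.05 and none passed after adjustment. Intervals of 27 genes lie within 0.5 of zero, and the smooth muscle genes Acta2, Myh11 and Tagln sit farthest to the right.

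The 95% intervals bound what was not detected. For 27 of the 32 genes the interval lay wholly between log2 differences of -0.5 and 0.5. The other genes were Acta2, Myh11, Tagln, Cnn1 and Des. Among the 27, Anpep (interval from -0.49 to 0.44) and Tie1 lay below every array median, where the added 16 shrinks differences and intervals. Spread within groups differed widely, from an SD of 0.05 on the log2 scale for the pericyte gene Rgs5 to 0.45 for the dim Des, with a median of 0.16 over the 32 genes.

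Junction genes come first, since they close the barrier. Cldn5, the main claudin of brain endothelium, ranged from 189 to 269 in untreated mice with a median of 222, and from 167 to 220 in creatine-fed mice with a median of 201. Each of the 6 mice on creatine was under the mean of the untreated group, but the ranges overlapped widely (log2 difference -0.14 ± 0.09 SE, adjusted p = 0.552). Ocln, another transmembrane protein of the tight junction, leaned the other way: 93 to 112 with a median of 99 under creatine, and 74 to 143 with a median of 82 without it. Its highest mouse was untreated replicate 2, at 143, and the other 6 untreated mice reached no more than 91. The Ocln difference of 0.15 ± 0.11 did not pass (adjusted p = 0.650). Without that mouse the difference was 0.25, with an unadjusted p of 0.00257 and an adjusted p of 0.226.

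Tjp1, which ties junction proteins to actin, read 606 ± 26.5 (SD, n = 6) against 603 ± 18.2 (SD, n = 7), with an interval of the log2 difference from -0.11 to 0.12. Pecam1, an adhesion molecule at endothelial contacts, was dim, running from 38 to 52 with creatine (median 51) and from 41 to 64 without (median 54). Its ranges overlapped (log2 difference -0.14, adjusted p = 0.578). Esam, a cell adhesion protein of the same contacts, read 138 ± 9.11 against 130 ± 21.8 (0.08).

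Among receptors and signalling genes no difference stood out from the spread. Tek, the receptor for angiopoietins, ranged from 72 to 102 in creatine-fed and from 74 to 113 in untreated mice, with medians of 90.0 and 86, and its difference was 0.00 with an interval from -0.20 to 0.20. Tie1, its partner receptor, read 27.3 ± 7.61 against 26.1 ± 9.03. Eng, a co-receptor for TGF-beta family ligands, differed by -0.07. Nos3, the endothelial synthase of nitric oxide, read 86.5 ± 15.9 against 98.1 ± 8.97 (-0.17 ± 0.10), with 5 of 6 mice on creatine under the untreated mean. Its creatine-fed replicates 1 and 3, at 63 and 70, were the lowest of all 13 mice.

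The transcription factors Sox17 and Sox18 act together in endothelial and arterial development, and their means differed in opposite directions. Sox17 ranged from 101 to 126 with creatine, median 125, and from 116 to 166 without, median 136. Every mouse on creatine, 6 of 6, was under the untreated mean, while untreated replicate 2 fell inside the creatine range. The difference was -0.19 ± 0.08 (unadjusted p = 0.0302, adjusted p = 0.365; exact permutation p = 0.0175, 2-sided, not adjusted). The unadjusted p was above 0.05 without creatine-fed replicate 4 or 6 or untreated replicate 4, at 0.0679, 0.0733 and 0.0652. This probe set, 1429177_x_at, has a suffix that marks probes able to match other transcripts; the second probe set, 1421657_a_at, differed by -0.10. Sox18 read 80.8 ± 12.3 against 75.4 ± 13.4 (0.09).

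Carriers that move compounds across the endothelium had lower means in 5 of 6 cases, or in 3 of 6 after each array was centred on its median. Slco1a4, an organic anion transporter concentrated in the brain capillary, read 415 to 460 in creatine-fed mice with a median of 432, and 441 to 546 in untreated mice with a median of 501. Only untreated replicate 1, at 441, lay within the creatine range. The log2 difference was -0.18 ± 0.06 (SE), with an interval from -0.31 to -0.05, an unadjusted p of 0.0121 and an adjusted p of 0.284. After median centring it was -0.13, with an unadjusted p of 0.0778. The exact permutation test of this gene alone gave 0.00408. Slco1c1, the thyroxine carrier of the same family, stood on the other side, at 544 ± 30.4 against 521 ± 28.7 (0.06, adjusted p = 0.744).

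Tfrc, the receptor that takes up iron-laden transferrin, was the 1 member whose groups did not overlap. It read 583 to 654 with a median of 637 in creatine-fed mice, and 656 to 764 with a median of 691 in untreated mice. The gap between the nearest mice, 654 and 656, was small. Of all genes, 0.396% had creatine-fed mice wholly below untreated mice at the brightest probe set. The log2 difference of Tfrc was -0.15 ± 0.06 (unadjusted p = 0.02, adjusted p = 0.325), and the exact permutation p over 1716 splits of the mice was 0.00117, 2-sided. Its other probe sets did not give 1 answer: 1422966_a_at read 181 ± 25.2 against 173 ± 20.1 (0.05), and 1422967_a_at, which is dim, differed by -0.15. Without creatine-fed replicate 3 the unadjusted p was 0.0510, and after median centring the difference was -0.10.

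Tfrc is also made by immature red cells, so blood markers are given beside it. Of 10 measured markers of red cells and neutrophils 8 had lower means with creatine, and their summed intensity ran from 217 to 381 in creatine-fed and from 269 to 739 in untreated mice. The neutrophil gene S100a8 read 38.8 ± 10.3 against 111 ± 79.9. The red cell markers did not all differ in 1 direction. Slc4a1, which is dim, read 13.5 ± 4.09 against 21.3 ± 4.92, with all 6 creatine-fed mice under the untreated mean. Its difference was -0.34 (limma unadjusted p = 0.00725, adjusted p = 0.253). The globins Hba-a1 and Hba-a2, also dim, differed by -0.32 and -0.03. Higher means were seen for Alas2, the haem enzyme of red cell precursors, at 92.2 ± 45.7 against 79.9 ± 28.0. The globin Hbb-b2 read 44.0 ± 17.6 against 42.7 ± 17.8. No marker had a mean of 0 in either group, though 5 of 10 lay below every array median. The part of blood in the Tfrc difference was not tested.

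Differences of 3 further carriers were smaller than the spread between mice. Slc16a1, a transporter of lactate and ketone bodies, ranged from 666 to 775 with creatine (median 755) and from 660 to 783 without (median 756), a difference of -0.03 with an interval from -0.17 to 0.10. Mfsd2a, which carries lysophospholipids with omega-3 fatty acids and restrains vesicle transport across the endothelium, ranged from 140 to 193 and from 137 to 173, with medians of 156 and 164. Its difference was -0.01, within an interval from -0.17 to 0.16. Bsg, the glycoprotein partner of lactate transporters, read 2598 ± 123 against 2723 ± 160 (-0.07).

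At their brightest probe sets the efflux pumps did not differ beyond the spread. Abcb1a, the P-glycoprotein of rodent brain capillaries, ranged from 175 to 218 with creatine and from 163 to 214 without, with medians of 198 and 201. Its difference was 0.02 (interval from -0.14 to 0.19). The second Abcb1a probe set, 1419758_at, read 112 ± 8.64 against 124 ± 9.66, with 6 of 6 mice on creatine under the untreated mean. There the difference of -0.13 had a limma unadjusted p of 0.0794 and an exact permutation p of 0.0414. Abcg2, the breast cancer resistance protein, read 145 ± 21.8 against 151 ± 10.9 (-0.07).

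Of the surface and secreted proteins, Vwf, the clotting factor carrier of larger vessels, ranged from 39 to 74 with creatine (median 50.0) and from 35 to 58 without (median 45). Creatine-fed replicates 2 and 6 were the highest of the 13 mice at 71 and 74, and the other 4 lay within the untreated range (0.14, adjusted p = 0.714). Itm2a, a membrane protein enriched in brain endothelium, was below the untreated mean in 6 of 6 mice, at 975 ± 30.9 against 1046 ± 53.3. Its difference of -0.10 had a limma unadjusted p of 0.104 and an exact permutation p of 0.0192. The second Itm2a probe set differed by -0.08. Pltp, a phospholipid transfer protein, was above the untreated mean in 6 of 6 mice, at 2011 ± 113 against 1798 ± 243 (0.17, adjusted p = 0.486), and by 0.05 at its second probe set.

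**Figure D2:**
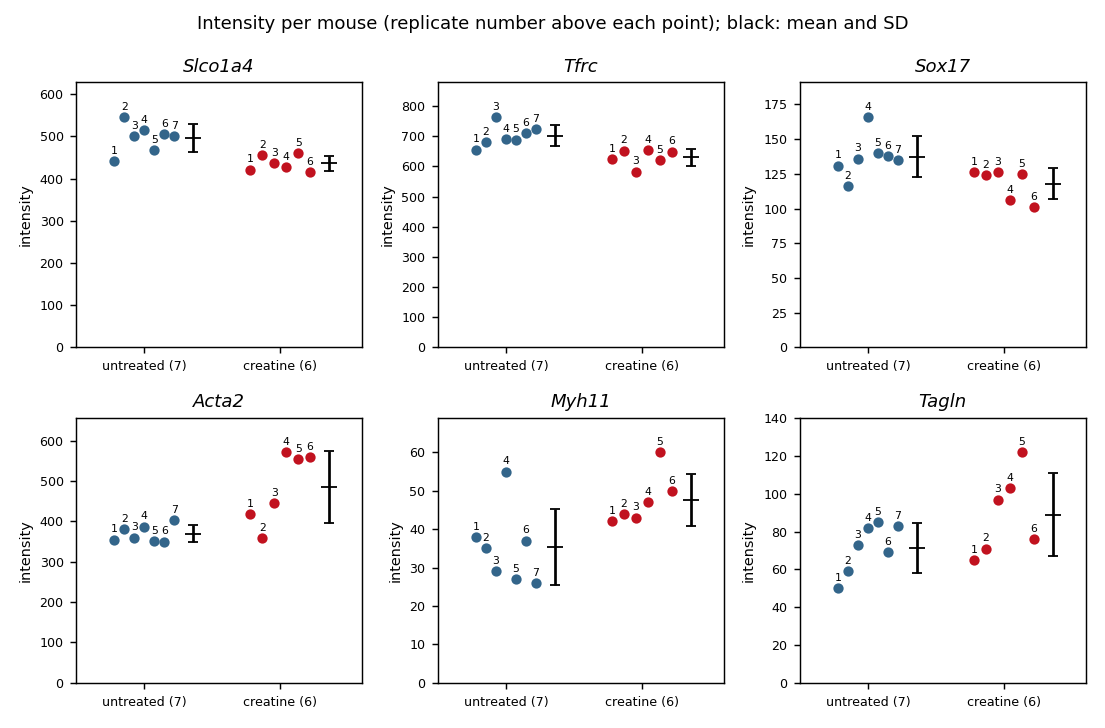
Intensity in each mouse for 3 endothelial genes (upper row) and 3 smooth muscle genes (lower row); numbers are replicate numbers and the black mark is the mean with the SD. Tfrc is the panel without overlap, from 583 to 654 against 656 to 764, and creatine-fed replicates 1, 3, 4, 5 and 6 stand above every untreated mouse for Acta2.

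No pericyte gene had an unadjusted p under 0.05. Pdgfrb, the receptor by which endothelial cells recruit pericytes, ranged from 93 to 122 with creatine (median 112) and from 106 to 142 without (median 127). All 6 mice on creatine were under the untreated mean (-0.15 ± 0.08, adjusted p = 0.488), but the second probe set, 1417148_at, read 51.8 ± 14.9 against 42.1 ± 6.99, a difference of 0.20. Rgs5, a regulator of G protein signalling, ranged from 745 to 849 and from 774 to 829, with medians of 774 and 800.0, and differed by -0.04 with an interval from -0.15 to 0.08. Vtn, the matrix protein vitronectin, ranged from 525 to 648 with creatine (median 607) and from 535 to 629 without (median 595). Its difference was 0.02. Abcc9, the regulatory subunit of a potassium channel of pericytes, differed by 0.05, and Anpep, an aminopeptidase of the pericyte surface, by -0.03 (15.8 ± 11.1 against 15.7 ± 8.16).

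Genes of the contractile apparatus of smooth muscle had the largest median difference among the roles in the list. Of 5 such genes 4 had higher means with creatine and the median log2 difference was 0.25, or 0.28 after quantile normalization and 0.30 after median centring. The mean of the 5 genes per mouse, relative to the untreated mean, ran from 0.05 to 0.43 in creatine-fed and from -0.27 to 0.14 in untreated mice on the log2 scale. Acta2, the smooth muscle actin, read 418, 359, 446, 571, 554 and 559 in creatine-fed replicates 1 to 6, and 355, 381, 360, 387, 351, 350 and 403 in untreated replicates 1 to 7. Creatine-fed replicates 1, 3, 4, 5 and 6 lay above every untreated mouse, and replicate 2 lay among them. The group means were 485 ± 88.9 (SD, n = 6) and 370 ± 20.8 (SD, n = 7), a log2 difference of 0.36 ± 0.10 (SE) with an interval from 0.14 to 0.58. The unadjusted p was 0.00391 and the adjusted p 0.221, so the gene did not pass; the exact permutation p was 0.00524.

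Myh11, the smooth muscle myosin heavy chain, read 42 to 60 with a median of 45.5 in creatine-fed mice, and 26 to 55 with a median of 35 in untreated mice. Untreated replicate 4, at 55, was the only untreated mouse above the lowest creatine-fed one. The difference was 0.33 ± 0.12 (unadjusted p = 0.0138, adjusted p = 0.290; exact permutation p = 0.0239). Myh11 lies near the array medians. Tagln, the actin-binding protein transgelin, read 65 to 122 with a median of 86.5 with creatine and 50 to 85 with a median of 73 without. Creatine-fed replicates 3, 4 and 5, at 97, 103 and 122, stood above all untreated mice, and the others fell among them (0.25 ± 0.14, adjusted p = 0.504). The highest mouse for both Myh11 and Tagln was creatine-fed replicate 5, and for Acta2 creatine-fed replicate 4.

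Cnn1, the calponin of smooth muscle, and Des, the intermediate filament desmin, were dim, at 12.7 ± 8.82 against 8.57 ± 4.50 and 15.5 ± 6.29 against 18.6 ± 11.3. The intervals were wide, from -0.19 to 0.56 for Cnn1 and from -0.55 to 0.41 for Des.

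The control regions of these genes are shown because smooth muscle genes are known to share CArG boxes, the sites of serum response factor. The 250 bases before the start were searched in each gene with a promoter sequence at hand. Tagln and Myh11 had no such sequence and were not searched. A match is CCNNNNNNGG with at most 1 G or C among the 6 inner bases. The motif is its own reverse complement, so both strands are covered. Sequences are from RefSeq on GRCm38.p6, 5′ to 3′ on the gene's strand, with matches in capitals, for the 3 contractile genes found in the promoter table used. Acta2 lies at chr19:34255374-34255623 on the minus strand, Cnn1 at chr9:22099003-22099252 and Des at chr1:75360042-75360291, both on the plus strand.
Acta2: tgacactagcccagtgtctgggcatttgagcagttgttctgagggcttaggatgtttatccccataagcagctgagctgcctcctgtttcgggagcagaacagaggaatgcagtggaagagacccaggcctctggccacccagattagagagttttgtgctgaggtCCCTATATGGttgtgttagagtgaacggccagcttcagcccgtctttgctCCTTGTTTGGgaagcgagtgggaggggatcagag
Cnn1: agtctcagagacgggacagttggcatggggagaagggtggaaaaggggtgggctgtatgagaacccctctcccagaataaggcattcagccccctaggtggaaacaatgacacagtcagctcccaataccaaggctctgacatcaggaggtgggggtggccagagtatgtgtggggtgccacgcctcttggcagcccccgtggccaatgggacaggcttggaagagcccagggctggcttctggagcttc
Des: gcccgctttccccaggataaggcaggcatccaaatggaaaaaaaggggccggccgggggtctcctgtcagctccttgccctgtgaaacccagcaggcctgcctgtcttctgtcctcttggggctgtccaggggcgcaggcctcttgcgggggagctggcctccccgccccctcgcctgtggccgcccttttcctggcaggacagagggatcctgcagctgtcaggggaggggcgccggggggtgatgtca

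Acta2 holds 2 matches, beginning 84 and 34 bases before the start, and the windows of Cnn1 and Des hold none. Over 32851 promoter windows of this length, 8.59% held at least 1 match and 0.670% at least 2. The shares are of single windows, while a vessel gene counts when any of its windows matched. Ocln, Tfrc and Abcg2 each have several windows, and Ocln matched in 1 window only. Windows on chromosome 18, where Pdgfrb lies, were left out of the count of vessel genes but not of these shares. Of the 22 measured vessel genes with a window elsewhere, 4 held a match: Acta2, Slco1a4, Ocln and Eng. These are matches of letters and say nothing of binding in these mice.

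**Figure D3:**
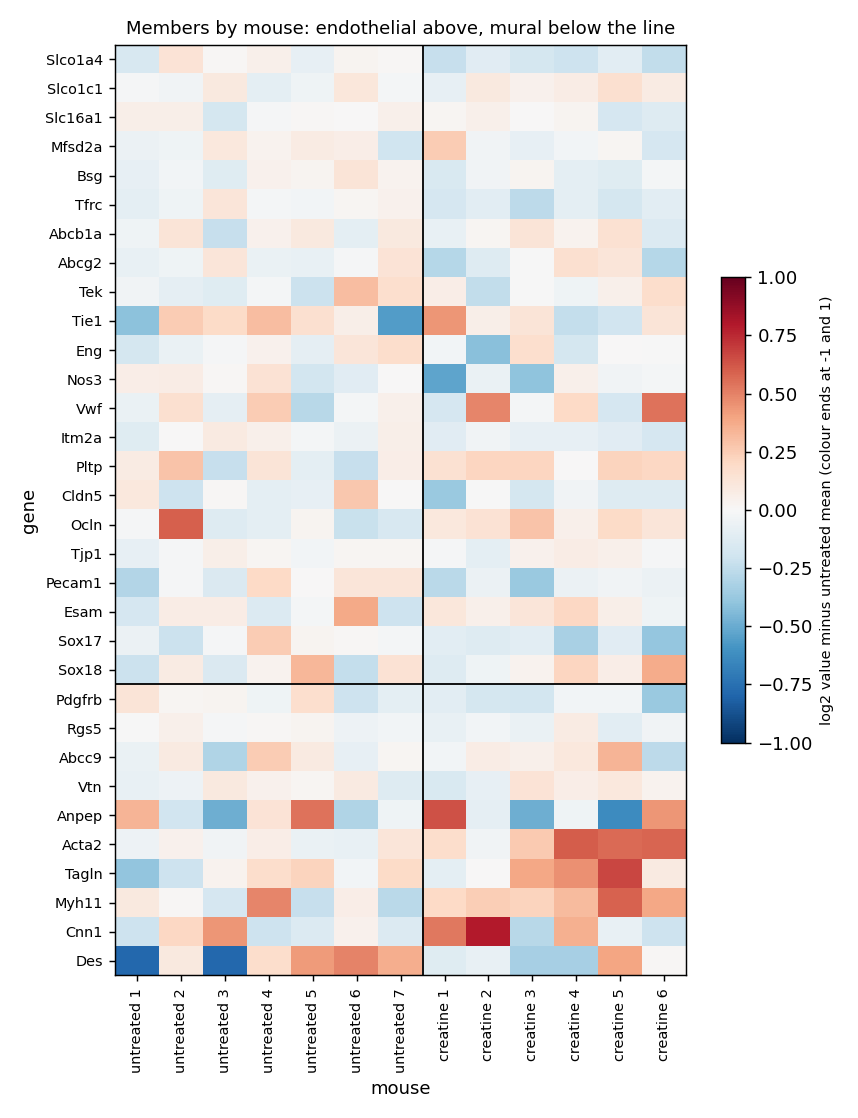
Log2 value of each gene in each mouse minus the mean of the untreated mice, red above and blue below, with endothelial genes over the horizontal line and mural genes under it. Red stands together for Acta2, Tagln and Myh11 in creatine-fed replicates 3 to 5. In creatine-fed replicate 6 Tagln is pale, at 0.09. Untreated replicate 4 is also above zero for Acta2, Tagln and Myh11, at 0.07, 0.18 and 0.49. Dim genes such as Des and Anpep vary as much within a group.

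Agreement between probe sets was limited. For 15 genes with several probe sets there were 20 further ones, and 11 of these differed in the opposite direction to the brightest. Of the 20, 6 were below every array median in both groups. Acta2 rests on 1416454_s_at alone, a suffix that marks probes shared between transcripts: its other probe sets, 1456658_at and 1444105_at, had means under 10 and differed by -0.27 and 0.01. Averaged over its 3 probe sets the Acta2 difference was 0.03, and averaged over both of its probe sets that of Myh11 was 0.15. Myh11 likewise rests on 1448962_at, since 1418122_at read 2.50 ± 1.05 against 2.86 ± 0.69. Rgs5 spread from -0.09 at 1420942_s_at to 0.43 at 1420940_x_at, none with an unadjusted p under 0.05. The dim 1446274_at of Slc16a1 read 9.83 ± 6.40 against 3.14 ± 3.58, a difference of 0.41 that was not seen at its bright probe set.

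**Figure D4:**
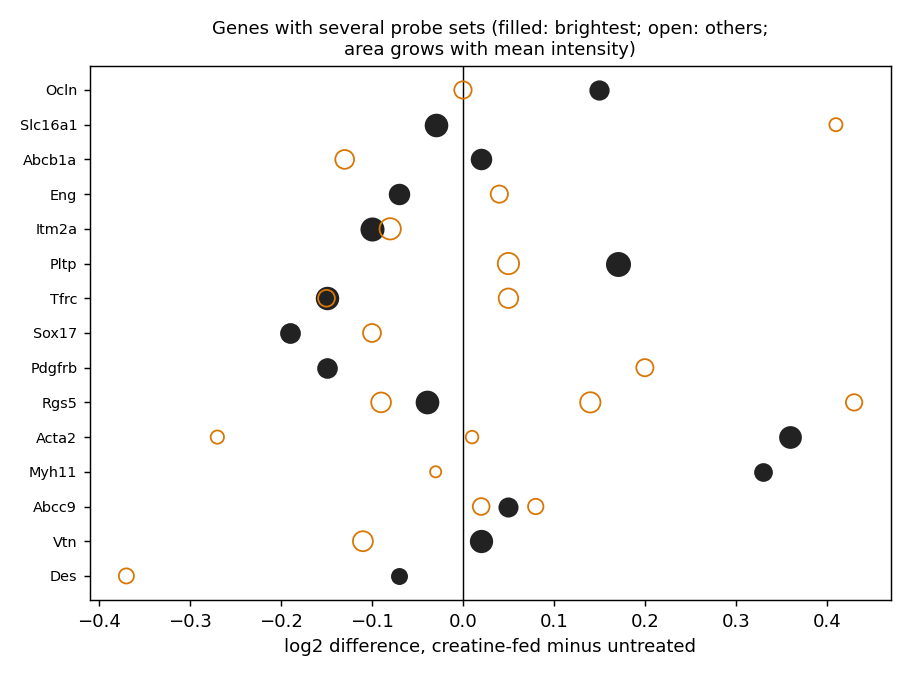
Log2 difference of every probe set for the 15 genes with several; filled points are the brightest probe set and open points the others, with area growing with mean intensity. For Acta2 and Myh11 only the brightest probe set lies well to the right, at 0.36 and 0.33, and the small open points are dim.

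Wider lists of vessel genes showed where the rest of the pathway stood. Of 39 further endothelial genes, 0 passed, 21 had lower means, or 11 after median centring, and the median was -0.01. At an unadjusted p under 0.05, 1 was higher and 0 lower. That gene was Hey1, a Notch target, at 343 ± 22.2 against 292 ± 12.2 (0.22 ± 0.06, adjusted p = 0.201), with all 6 creatine-fed mice above all untreated mice, as in 0.253% of all genes. Podxl, a sialomucin of the luminal surface, differed by 0.17, Sparc, a secreted matrix-binding protein, by -0.12, and Klf2, a factor induced by blood flow, by -0.20. Genes of Wnt signalling and barrier induction had lower means in 7 of 14 cases, in 5 of 14 after quantile normalization and in 3 of 14 after median centring, with none at an unadjusted p under 0.05. Among these Fzd4, a Wnt and norrin receptor, differed by 0.29 and Apcdd1, a Wnt inhibitor, by -0.19, neither past the spread (adjusted p = 0.535 and 0.520).

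Ligands and receptors of the angiopoietin, TGF-beta and PDGF pathways had lower means in 7 of 14 cases, or in 5 after quantile normalization and 6 after median centring. Tgfb2 read 77.3 ± 11.6 against 61.7 ± 12.4 (0.27, adjusted p = 0.371), and Pdgfb, the ligand of Pdgfrb, 202 ± 34.6 against 175 ± 15.2 (0.18, adjusted p = 0.495). Of 16 further pericyte genes 10 had lower means, or 5 after median centring. Among them Notch3, a receptor of mural cells, read 145 ± 6.27 against 173 ± 27.7 (-0.22, adjusted p = 0.376). Genes of the vascular basement membrane had a median of -0.02 over 12 genes, or 0.03 after median centring, with Hspg2, the proteoglycan perlecan, at 104 ± 43.5 against 144 ± 25.7 (-0.48, adjusted p = 0.363).

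Of 18 further smooth muscle genes 9 had lower and 9 higher means, with a median of -0.01 (0.04 after median centring), a range from -0.38 to 0.14 and 0 passed. Srf, serum response factor itself, read 225 ± 24.6 against 201 ± 17.1 (0.14, adjusted p = 0.512). Myocd, its smooth muscle coactivator, read 3.33 ± 2.73 against 9.57 ± 5.53 and Lmod1, a leiomodin, 1.67 ± 0.82 against 4.0 ± 2.38. Both are far below the array medians (-0.38 and -0.17, adjusted p = 0.313 and 0.408). Sncg, which lies above every array median, read 72.0 ± 21.7 against 93.0 ± 25.8 (-0.31, adjusted p = 0.530). Markers of fibroblasts and meninges, tissue that carries the larger vessels, had a median of -0.01, or 0.05 after median centring, with 7 of 13 lower, or 6. Their list mean per mouse ran from -0.12 to 0.08 in creatine-fed and from -0.16 to 0.11 in untreated mice. Their summed intensity ran from 1464 to 1715 and from 1410 to 1699, and 1 of 13 was below every array median. The brightest genes in that sum were Igf2 and Pdgfra, with differences of 0.01 and -0.01.

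**Figure D5:**
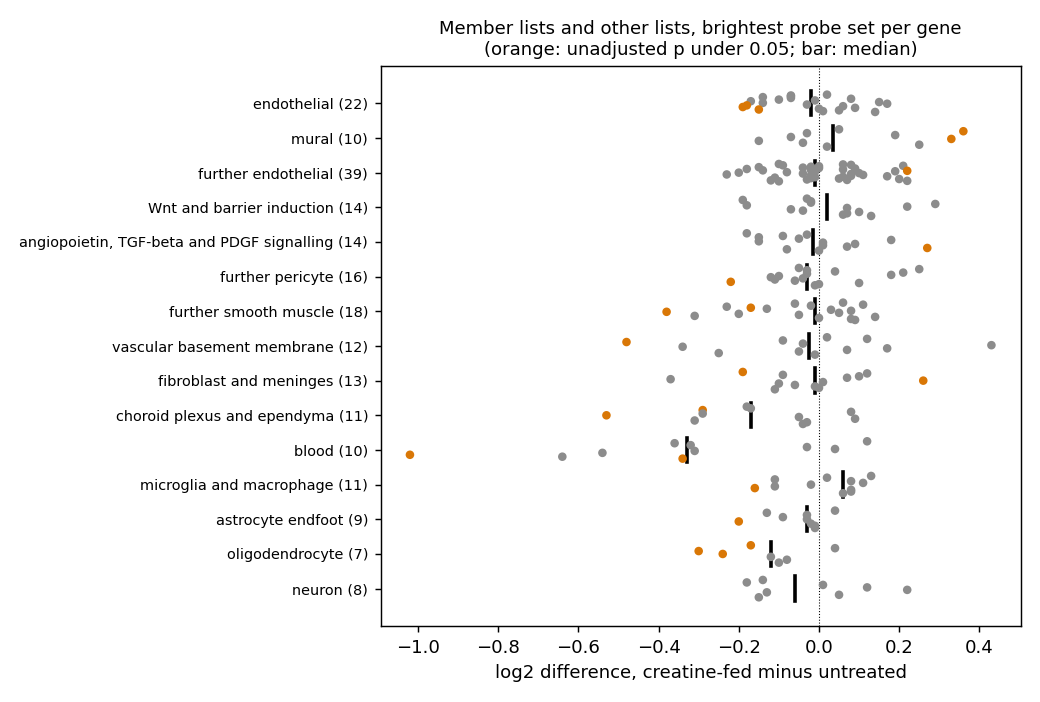
Log2 difference of each gene at its brightest probe set for the endothelial and mural genes and for 13 other lists, with the number of genes measured in brackets, the median as a bar and genes at an unadjusted p under 0.05 in orange. Medians of the vessel lists lie between -0.03 and 0.03, and those of blood (-0.33), choroid plexus and ependyma (-0.17) and oligodendrocytes (-0.12) lie to the left.

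Markers of other cell types that share the hemisphere are given as well; none passed. Choroid plexus and ependyma markers had lower means in 9 of 11 cases, or 6 after median centring, 7 of the 11 being below every array median. Their summed intensity was 5982 to 9753 with creatine and 4953 to 11723 without. Most of that sum is Ttr, at 7707 ± 1355 against 8057 ± 2130 (-0.04), so it does not reflect the dim markers. This tissue makes some of the listed carriers. Oligodendrocyte markers were lower in 6 of 7 (17040 to 19167 against 18536 to 23208), and Mag, a myelin adhesion protein, differed by -0.30. Markers of astrocytes in general and of their endfeet, which cover brain vessels, were lower in 8 of 9 with a median of -0.03. After median centring 3 of 9 were lower. Gjb6, a connexin, differed by -0.20 without centring. Microglia and macrophage markers had a median of 0.06 and neuron markers one of -0.06. The part of these cells in the differences of Slco1a4, Tfrc and Sox17 was not tested.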

How the data were processed

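The deposited table holds 1 intensity per probe set and array, in whole numbers with zeros, for 45101 probe sets. Each array's mean without its highest and lowest 2% came to about 150.05, so the intensities deposited by the authors appear scaled to one target. RMA, the tool in the submitters' processing notes, gives output on a log2 scale, which these values are not on. What scaled them is not given in the sources used here. They were not scaled again.

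After 64 control probe sets were set aside, 16 was added and log2 taken. Groups were compared with limma 3.58.1 (lmFit, eBayes) in R 4.3.3, 2-sided, without covariates or filter, over 45037 probe sets. The procedure was tested on simulated data. Single genes also had an exact permutation test over all 1716 splits, not adjusted over genes. Of the probe sets, 34945 carried 1 symbol, 34741 of them updated through the Entrez ID.

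All members are named at their brightest probe set; up to 4 genes per other list by smallest p, and further blood markers and probe sets after their values were seen. The members and lists were chosen with earlier results of these data known. The alternatives in the closing section include quantile normalization, median centring, offsets of 1 and 50, and leaving out each mouse. Figures were drawn with matplotlib 3.10.9.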

Additional observations from a re-analysis of the deposited data

Results flagged for a closer look

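In 64 groups of values (32 genes, 2 groups each), 5 held a mouse far from the others of its group, measured as the gap to the nearest mouse over the group's range; chance flags about 1 in 20 groups. Untreated replicate 2 was high for Ocln, at 143 with the next mouse at 91. Untreated replicate 3 was low for Slc16a1, at 660 with the next at 743. Untreated replicate 6 was high for Esam, at 173 with the next at 137. Creatine-fed replicate 4 was low for Pltp, at 1793 with the next at 1985. Untreated replicate 4 was high for Myh11, at 55 with the next at 38.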

How the results depend on the processing

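No vessel gene passed over all probe sets under any alternative run. Probe sets called over the array numbered 4, and 0 with an offset of 1, 36 with an offset of 50, 2 after quantile normalization, 0 with the replicate block, 161 with trend and robust, 138 in the brighter 22519 probe sets, and 0 to 6 without 1 mouse. After centring each array on its median the endothelial median was 0.03 in place of -0.02, 0 endothelial genes in place of 3 were lower at an unadjusted p under 0.05, and 1 (Pltp) was higher; over all genes that median moved from -0.03 to 0.02. The count of higher endothelial genes was also 1 with trend and robust and when probe sets of a gene were averaged, and 0 to 2 without 1 mouse; that of lower ones was 2 to 4. With the replicate block 1 endothelial gene was lower and 1 mural gene was lower. Of mural genes 1 was higher in the brighter 22519 probe sets, which leaves out Myh11, and 1 when probe sets of a gene were averaged, where Acta2 differed by 0.03; without 1 mouse 2 to 3 were higher and 0 to 1 lower. Acta2 ran from 0.31 to 0.44 and Myh11 from 0.27 to 0.41 without 1 mouse.

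Small differences turned sign: with the mean of all probe sets Abcb1a (-0.05), Pdgfrb (0.03), Rgs5 (0.11), Slc16a1 (0.19) and Vtn (-0.05); after median centring Anpep (0.03), Mfsd2a (0.05), Rgs5 (0.02) and Slc16a1 (0.02); after quantile normalization Anpep (0.03), Mfsd2a (0.01) and Tjp1 (-0.01); with the 3′/5′ covariate Abcb1a (-0.01) and Mfsd2a (0.02); with an offset of 1 Des (0.06); with the replicate block Tie1 (-0.04). Without 1 mouse the ranges crossed zero for Abcb1a (-0.02 to 0.05), Abcc9 (-0.01 to 0.11), Anpep (-0.16 to 0.09), Des (-0.20 to 0.01), Mfsd2a (-0.06 to 0.03), Tek (-0.04 to 0.05), Tie1 (-0.04 to 0.11), Tjp1 (-0.01 to 0.03) and Vtn (-0.01 to 0.05). The cause of these changes was not tested. Same-numbered mice of the groups share only a number: their deviations correlated from -0.14 to 0.34, and 1 of 6 creatine-fed mice correlated best with its own number. The number of arrays limits every value.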
